A study of Mus musculus with 12 samples.

Results

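MIN6 is an insulin-secreting line from an insulinoma of a mouse that carried a viral T antigen, and the labels give its genotype as WT. The comparison described here is that of MIN6 cells given trimethylamine N-oxide (TMAO, 100 nM, 18 h) with MIN6 cells given vehicle, both under high glucose. It was taken from the sample labels, as the 3 libraries labelled high glucose and TMAO against the 3 labelled high glucose and vehicle, and so rests on 6 of the 12 RNA-seq libraries of the study. The other 6 libraries, from cells under low glucose with the same TMAO dose or vehicle, entered the same model and are named only where the 2 glucose levels are compared. All groups are the same line, so they hold no other genotype or animal. The study sequenced these cells to look further into mechanism, after it reported abnormal cytosolic calcium transients with TMAO. The values below concern pathways and gene classes other than calcium handling, insulin secretion and reactive oxygen species, and the size of change that the libraries exclude.

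TMAO is a small methylamine. Gut microbes release trimethylamine from dietary choline and carnitine, and flavin monooxygenases of the liver oxidise it to TMAO. In a beta cell, glucose is broken down by glycolysis and in mitochondria, and the ATP so made sets off electrical activity and insulin release. The same cells carry a heavy load of protein folding in the endoplasmic reticulum (ER), hold their identity through a set of transcription factors, and answer a rise in glucose by inducing immediate-early genes.

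The 6 libraries held 16793162 to 22340542 fragments counted on genes, and 16222 of the 54022 genes listed passed a filter on low counts. The 11 genes of a list of beta-cell markers, among them Slc2a2, Ucn3, Mafa, Pdx1, Nkx6-1, Iapp and Ins2, were all expressed, and their summed FPKM (fragment counts scaled to transcript length and library size) lay between 44606 and 46183 with vehicle and between 44263 and 47352 with TMAO. Of 32 markers listed for other pancreatic, immune, stromal and endothelial cells, 12 were at 0 FPKM in all 6 libraries (Hhex, Amy2b, Ptf1a, Krt19, Sox9, Adgre1, Ptprc, Col3a1, Pdgfra, Dcn and Kdr among them) and 26 stayed under 1 FPKM in each. The other 6, with their mean levels, were Ttr (658.1 FPKM) and Gcg, the glucagon gene (225 FPKM), of the alpha-cell list, Krt7 (19.9 FPKM), Cd68 (4.40 FPKM), Sst, the somatostatin gene (1.48 FPKM), and Cela1 (0.992 FPKM). Gcg had 226 FPKM with vehicle and 224 with TMAO, and the summed level of the alpha-cell list was 853 to 911 FPKM with vehicle and 876 to 902 with TMAO. No pair of replicate libraries was as alike as sampling noise alone would make it. On the first principal component of the 6 libraries (22.65% of the variance) the TMAO libraries scored 2.87 to 21.4 and the vehicle libraries -20.5 to 1.26. The second component (22.5%) and the third (19.9%) did not separate them, and these shares were close to that of the first.

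With TMAO at high glucose, no gene was called higher or lower. In the quasi-likelihood test of edgeR, with p-values adjusted by the method of Benjamini and Hochberg, 0 of 16222 genes (0%) had an adjusted p under 0.05, and the lowest adjusted p was 0.796. An unadjusted p under 0.05 was reached by 868 genes (5.35%), 370 higher (2.28%) and 498 lower (3.07%) with TMAO, and 811.1 would be reached if nothing differed. DESeq2's Wald test called 3 genes with all 12 libraries and 7 with the 6 high-glucose libraries. The 3 libraries of one treatment lay wholly above or below those of the other for 1804 genes (11.1%), 887 of them higher (5.47%) and 917 lower (5.65%) with TMAO. The median log2 fold change over all genes was 0.00039 and the median absolute value 0.07. In what follows, values in threes are normalised counts in replicates 1, 2 and 3, a signed value beside a gene is its log2 fold change of TMAO against vehicle, and intervals are 95% confidence intervals. In the edgeR model with all 12 libraries and the filter on low counts, none of the genes named passed the threshold. The same test called 3 genes with the 6 high-glucose libraries alone, 13 when genes with low counts were kept, and 1 other gene when vehicle replicate 1 was left out.

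**Figure D1:**
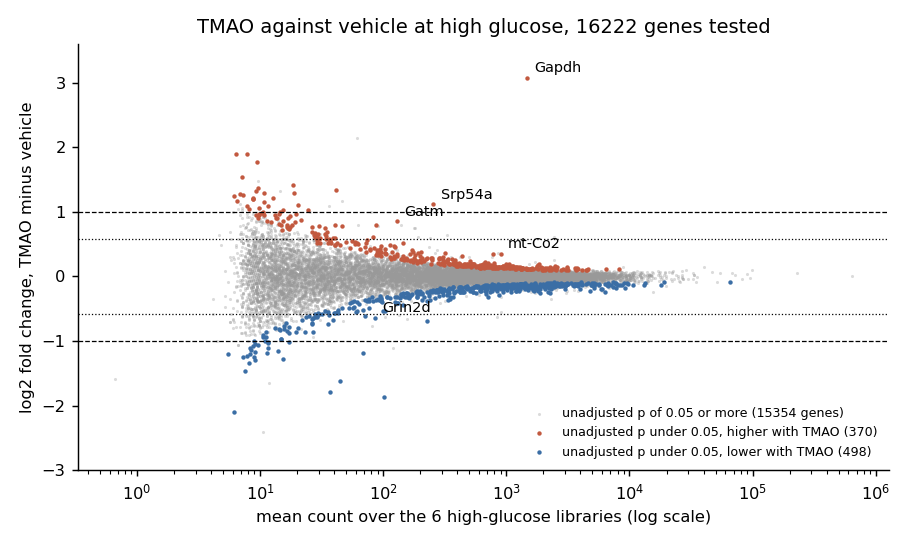
Log2 fold change of TMAO against vehicle at high glucose for the 16222 genes tested, against the mean count over the 6 libraries on a log axis. Dotted and dashed lines mark 1.5-fold and 2-fold, red and blue points are the 370 higher and 498 lower genes with an unadjusted p under 0.05, and none of the points passed the adjusted threshold. The cloud narrows as counts grow, and Gapdh stands at 3.08 above it.

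For most genes the libraries excluded all but small changes. A change was called excluded when 2 one-sided tests against that fold in either direction gave an adjusted p under 0.05. By this rule a 2-fold change was excluded for 14823 genes (91.4%), a 1.5-fold change for 12417 (76.5%) and a change by a ratio of 5 to 4 (a 5-to-4 change) for 9639 (59.4%). The 95% confidence interval of the fold change lay within 1.5-fold for 12114 genes (74.7%). Its median half-width was 0.18 on the log2 scale, or 1.13-fold, and the median standard error was 0.086. Estimates of at least 1.5-fold in either direction occurred in 449 genes and of at least 2-fold in 73.

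What could be excluded depended on the level of the gene. Deciles of genes were taken by the mean count over all 12 libraries. In the lowest decile, with a median of 10.5 counts, the median half-width was 0.92 on the log2 scale (1.89-fold), a 1.5-fold change was excluded for 0% and a 2-fold change for 36.6%. In the second decile, with a median of 22.4 counts, these shares were 10.5% and 81.7%. In the fourth decile, with a median of 141 counts, 93.7% of genes had a 1.5-fold change excluded and 33.3% a 5-to-4 change. From the sixth decile upwards, where genes had a mean of at least 399.7 counts, at least 99.5% of genes had a 1.5-fold change excluded. In the highest decile the half-width was 0.095 (1.07-fold), and a 5-to-4 change was excluded for 97.2%. For genes of the lowest decile, with a mean of at most 15 counts over the 12 libraries, a 1.5-fold change could thus not be excluded at this depth.

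**Figure D2:**
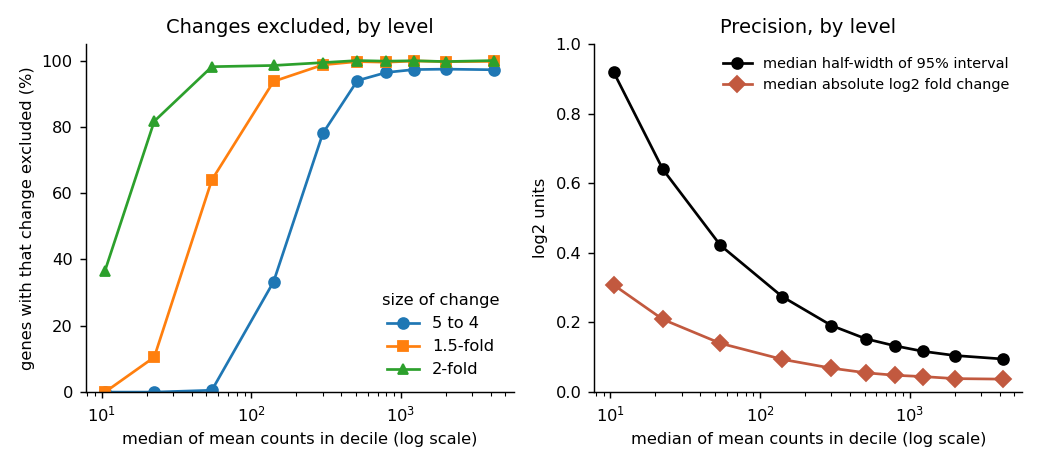
Left, the share of genes in each decile by mean count over all 12 libraries for which a change of 5 to 4, 1.5-fold or 2-fold was excluded. Right, the median half-width of the 95% confidence interval and the median absolute log2 fold change in the same deciles. The half-width falls from 0.92 to 0.095 and stays above the absolute fold change in all 10 deciles.

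Among the 8 highest and 8 lowest estimates with an unadjusted p under 0.05, 50 counts or more on average and no overlap between the libraries of the 2 groups, several belonged to pseudogenes, small RNAs or genes on patch scaffolds. These 16 were selected by their fold change, so the values describe them and test nothing. The largest estimate was that of Gapdh, the glycolytic enzyme glyceraldehyde-3-phosphate dehydrogenase (ENSMUSG00000057666, mm10 chromosome 6 from 125161715 to 125166467 on the minus strand). Its normalised counts were 347, 295 and 271 in the vehicle libraries and 1688, 3381 and 2614 in the TMAO libraries. The groups did not overlap, and the spread among the TMAO libraries was wide. The log2 fold change was 3.08 (standard error 0.73, 95% interval 1.41 to 4.75, edgeR adjusted p = 0.91). DESeq2's Wald test gave an adjusted p of 0.00971 with 12 libraries and 3.04e-19 with 6.

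At low glucose the normalised counts of Gapdh were 1924, 2118 and 1292 with vehicle and 2793, 3274 and 425 with TMAO, so that the high-glucose vehicle libraries were the lowest of the 12. The interaction of TMAO with glucose was 2.79 on the log2 scale for Gapdh, with an edgeR adjusted p of 1. In the mouse annotation 140 other genes hold a stretch of at least 150 bases at 95% identity or more to the longest Gapdh transcript, so its count is uncertain. The 139 of them in the table summed to 1749, 1689 and 1589 counts in the vehicle libraries and 1626, 2056 and 1617 in the TMAO libraries, where Gapdh itself had 343, 318 and 245 and 1499, 4001 and 2369. The summed counts of these copies overlapped between the groups. In FPKM, Gapdh had 3.89 ± 0.49 FPKM with vehicle and 32.7 ± 10.8 with TMAO (SD, n = 3), beside 326 ± 7.30 and 315 ± 5.79 for Pkm, the muscle-type pyruvate kinase.

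Gatm, the mitochondrial glycine amidinotransferase that makes the precursor of creatine, had no near-identical copy in the annotation (ENSMUSG00000027199, chromosome 2 from 122594467 to 122611303 on the minus strand). It had 103, 94.6 and 84.2 normalised counts with vehicle and 221, 135 and 159 with TMAO, with no overlap. The log2 fold change was 0.85 (0.47 to 1.24, edgeR adjusted p = 0.796), and DESeq2 called it with an adjusted p of 0.0405. At low glucose it had 175, 107 and 114 with vehicle and 142, 152 and 149.7 with TMAO, and the high-glucose vehicle libraries were the 3 lowest of the 12. Without each library in turn the log2 fold change lay between 0.64 and 1.01.

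The other higher estimates included that of Srp54a, the subunit of the signal recognition particle that binds signal sequences. It had 126, 127 and 240.5 normalised counts with vehicle and 340.2, 372 and 345 with TMAO (1.12, 95% interval 0.12 to 2.11). Vehicle replicate 3 lay nearer to the TMAO libraries than the other vehicle libraries did. Srp54a shares sequence with 2 other annotated genes, of which Srp54b was the more counted, and their counts were 551, 543 and 558 with vehicle and 512, 683 and 474 with TMAO. Apoo-ps, a processed pseudogene of a cristae protein gene, had 54.6, 61.2 and 80.9 and 115, 87.0 and 142 (0.80), while its only near-identical partner, Apoo, had 654, 793 and 680 and 600, 756 and 571 counts. The zinc finger gene Zfp2 had a log2 fold change of 0.57. The pseudogenes Gm6311 and AC022775.2, of which Rps2 and Rpl10 are the most counted partners, had 0.55 and 0.53, and the transcript of the class TEC Gm45804 had 0.61.

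Of the lower estimates with an annotated name, that of Grin2d, which encodes a subunit of the NMDA glutamate receptor, had the lowest p. Its normalised counts were 128, 93.7 and 96.4 with vehicle and 63.1, 70.1 and 70.6 with TMAO, and the log2 fold change was -0.64 (-0.97 to -0.31, edgeR adjusted p = 0.91). Vehicle replicate 1 was the highest library, and without it the value was -0.48. Scrt2, a neuronal zinc finger repressor, had -0.54. Comtd1, a methyltransferase-domain protein, had -0.49, and -0.65 to -0.30 over the left-out libraries. The small nucleolar RNA Snord104 had -0.56, the microRNA gene Gm44349 had -0.54, and Gm7628, which shares sequence with Plxnb1 on the other strand, had -0.61. Since no source used here says that fragments were counted by strand, Gm7628 and Plxnb1 cannot be told apart.

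Lower estimates past 2-fold were found for 3 genes on patch scaffolds of the mouse assembly, to which the deposited table gives numbered names and no symbol. The first had 72.8, 57.5 and 380.1 normalised counts with vehicle and 43.9, 38.0 and 56.3 with TMAO (-1.87). Vehicle replicate 3 alone held most of its vehicle counts, and the log2 fold change was -0.51 without that library. The second had 61.7, 91.9 and 141 and 50.7, 43.9 and 34.2 (-1.18). The third had 68.8, 44.5 and 62.1 and 19.1, 13.5 and 18.8 (-1.79), and DESeq2 gave it an adjusted p of 0.0405 with 12 libraries. A patch repeats sequence of the main chromosomes, and fragments shared between them were not examined. Over all 71 tested genes on patch or unplaced scaffolds, 1 was higher and 5 were lower at an unadjusted p under 0.05 (8.45%, against 5.35% of all genes).

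In all, 14 genes had an adjusted p under 0.05 under at least 1 alternative that kept all libraries of the comparison, 13 of them when genes with low counts were kept in the test. Beside those above they were the ribosomal protein pseudogene Rpl19-ps11 (0.35, with 7 near-identical genes, Rpl19 among them), the pseudogene Gm11382 (1.34), the protein-coding gene Gm2004 (-1.62, with 26 near-identical genes), the mitochondrial gene mt-Co2 and 5 protein-coding genes with lower estimates. These 5 were Epop (-0.32), a partner of the Polycomb complex PRC2, Tysnd1 (-0.29), a peroxisomal protease, Dlgap3 (-0.25), a postsynaptic scaffold protein, Fbxl14 (-0.24), a ubiquitin ligase subunit, and Irf2bp2 (-0.23), a corepressor. Their 95% intervals reached at most 1.45-fold, for Tysnd1. With an offset for the GC content of transcripts, described below, the 5 values were -0.19, -0.16, -0.14, -0.21 and -0.20 in the same order. Dlgap3 had -0.16 and Irf2bp2 -0.13 without vehicle replicate 1.

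**Figure D3:**
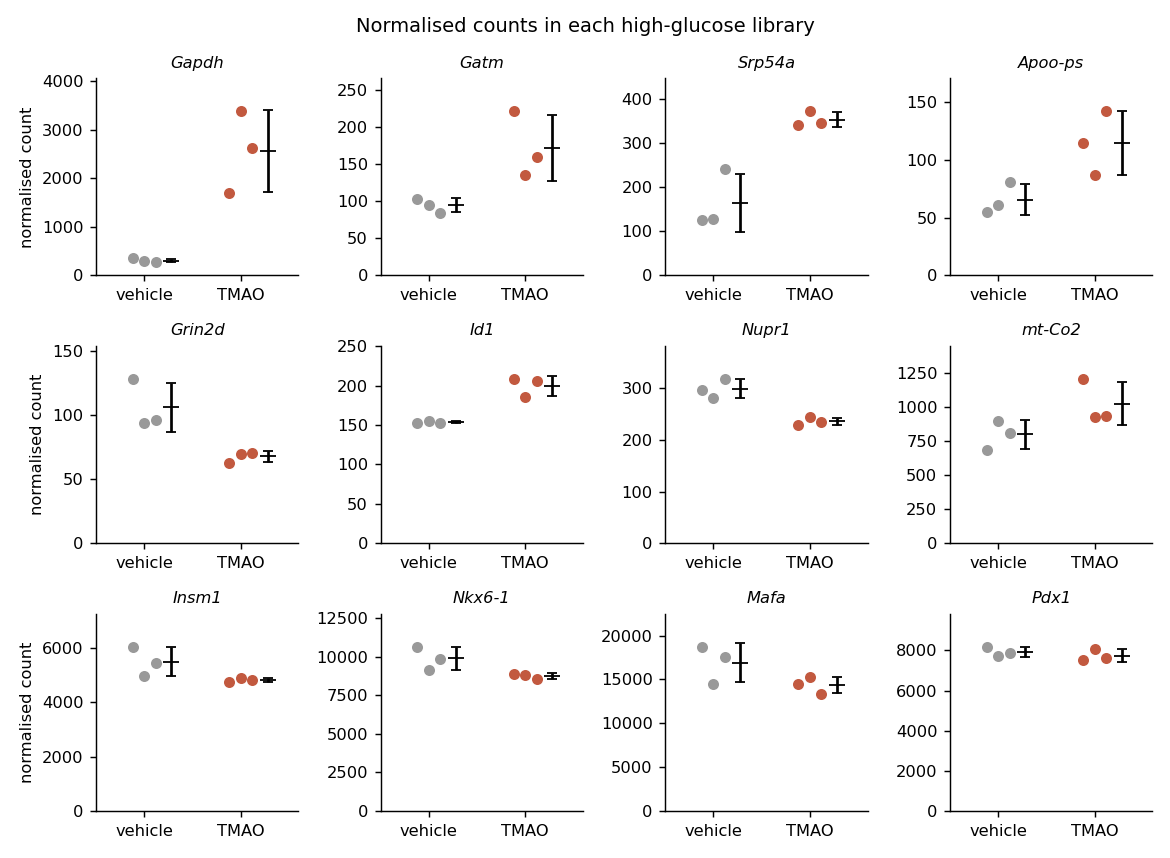
Normalised counts (counts scaled to TMM library sizes) of 12 genes in the 3 vehicle (grey) and 3 TMAO (red) libraries at high glucose, with the mean and SD of each group as a black bar. Gapdh, Gatm, Srp54a and Apoo-ps lie higher with TMAO in every library. The 4 beta-cell transcription factors in the lowest row differ by less than 1.2-fold on average, and vehicle replicate 1, the leftmost grey point, is the highest of the 6 in each of them.

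The 33 gene lists held 1086 genes, of which 1009 were tested. None of the lists had a member with an adjusted p under 0.05 (edgeR). A 1.5-fold change was excluded for 943 of the 1009 members. The medians of the lists lay between -0.076 and 0.14, 17 above 0 and 16 below. For 31 of the 33 lists the mean log2 level of the members overlapped between the 3 TMAO and the 3 vehicle libraries. The exceptions were the glycolytic enzymes and the zinc transporters and metallothioneins. Among single genes 11.1% did not overlap, and these 2 lists were not tested against that share.

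**Figure D4:**
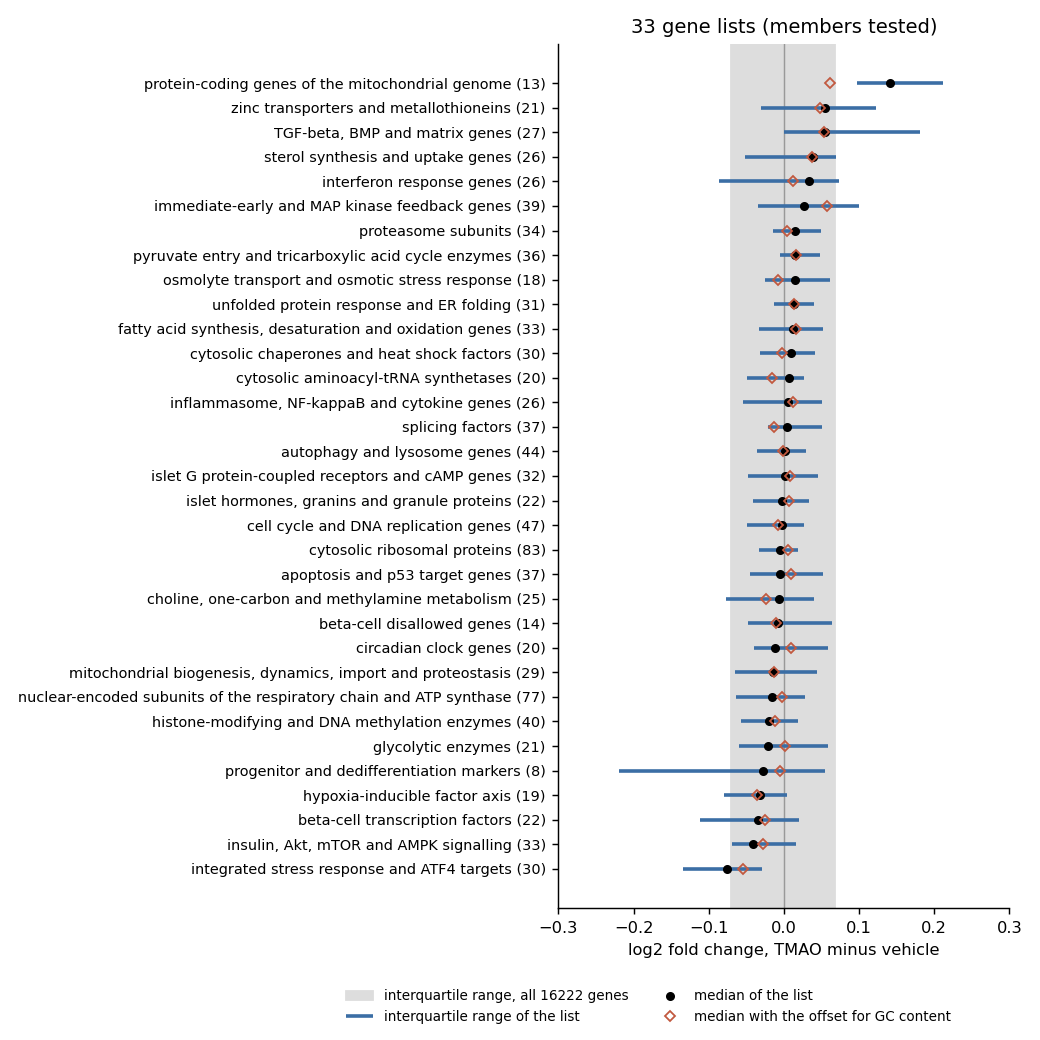
Median (black points) and interquartile range (blue lines) of the log2 fold changes of 33 gene lists, with the number of members tested in brackets, beside the interquartile range of all 16222 genes (grey band). Open diamonds are the medians with an offset for transcript GC content. The genes of the mitochondrial genome stand highest, at 0.14, and move to 0.061 with the offset.

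Mitochondria make most of the ATP that triggers insulin release, from subunits encoded in the nucleus and in the mitochondrial genome. The 13 protein-coding genes of the mitochondrial genome all had estimates above 0, with a median log2 fold change of 0.14 (interquartile range 0.097 to 0.21). Of the 13, 2 had an unadjusted p under 0.05 (15.4%, against 5.35% of all genes). Relative to the mean of the 6 libraries, the mean log2 level of the 13 was -0.25, 0.0094 and -0.028 in the vehicle libraries and 0.22, 0.037 and 0.0091 in the TMAO libraries. TMAO replicate 1 was the highest and vehicle replicate 1 the lowest, and TMAO replicate 3 was level with vehicle replicate 2. Without vehicle replicate 1 the median was 0.086, and with the GC offset 0.061. These genes had a median GC content of 37.1%, against 49.5% over all genes tested.

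Among them mt-Co2, subunit 2 of cytochrome c oxidase, had 687, 901 and 814 normalised counts with vehicle and 1209, 931 and 937 with TMAO (0.35, standard error 0.13, edgeR adjusted p = 0.91). The groups were apart by a narrow margin. Near-identical sequence lies in 2 other annotated genes, whose counts were 308, 386 and 356 with vehicle and 398, 448 and 392 with TMAO. For mt-Nd3, a subunit of complex I, the counts were 344, 363 and 368 and 414, 433 and 395 (0.21, adjusted p = 0.91 in edgeR). The far more abundant mt-Co1 and mt-Nd1 had 0.097 and 0.062, with a 5-to-4 change inside neither interval, and mt-Co1 had 0.044 without vehicle replicate 1. Over the left-out libraries mt-Co2 ranged from 0.22 to 0.45. All genes on the mitochondrial chromosome together took 1.71% ± 0.0499 of counts with TMAO and 1.597% ± 0.0912 with vehicle (SD, n = 3, exact two-sided permutation test, p = 0.2, with 0.1 the smallest possible).

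The nuclear-encoded subunits of the respiratory chain and ATP synthase had a median of -0.016, and 76 of the 77 tested had a 1.5-fold change excluded. An unadjusted p under 0.05 occurred in 1 higher and 6 lower members (9.09%, against 5.35% of all genes). The lower ones with the smallest p were Ndufs7 of complex I (1737, 1570.0 and 1555 against 1482, 1441 and 1473 normalised counts with TMAO, -0.15) and Cox5b of complex IV (-0.12). Their libraries did not overlap, and the 95% intervals reached 1.202-fold and 1.17-fold. Cox6a1 and Cox8a, the members with the highest FPKM, had -0.068 and 0.0051. The 29 genes of mitochondrial biogenesis, dynamics, import and proteostasis had a median of -0.015, with 28 having a 1.5-fold change excluded. There Phb2, an inner-membrane prohibitin, had -0.13 and Dnm1l, the fission GTPase, 0.081. Without vehicle replicate 1 Ndufs7 had -0.092 and Phb2 -0.077.

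In the tricarboxylic acid cycle and pyruvate entry, 25 of 36 members had estimates above 0, with a median of 0.015. Mpc1, a subunit of the mitochondrial pyruvate carrier, had 263, 241 and 285 normalised counts with vehicle and 340.2, 308 and 309 with TMAO, without overlap (0.28, edgeR adjusted p = 0.91). Idh2 and Mdh1, the members with the highest FPKM, had -0.0016 and 0.043. Of 21 glycolytic enzymes 7 had estimates above 0 and the median was -0.022. Their mean log2 level, relative to the 6 libraries, was -0.021, -0.087 and -0.098 with vehicle and 0.078, 0.084 and 0.045 with TMAO, which did not overlap. Without Gapdh the same means were 0.043, -0.014 and -0.02 and 0.033, -0.011 and -0.033, which overlapped. Triose phosphate isomerase, Tpi1, had 9634, 9050.0 and 9582 and 8990.4, 8679.6 and 8689 (-0.10), and Pkm had -0.048.

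Beta-cell identity rests on transcription factors that keep the insulin genes and the secretory programme on. Of the 22 tested, 13 had estimates below 0, with a median of -0.035 (interquartile range -0.11 to 0.021), and all 22 had a 1.5-fold change excluded. The median was -0.022 without vehicle replicate 1 and -0.025 with the GC offset. In 6 of them (27.3%) every TMAO library lay below every vehicle library, against 5.65% of all genes. An unadjusted p under 0.05 was reached by 4, all lower (18.2%, against 5.35% of all genes and 3.07% for lower genes). Insm1, a zinc finger factor of endocrine cells, had 6050.2, 4979 and 5463 normalised counts with vehicle and 4757, 4912 and 4845 with TMAO (-0.18, standard error 0.063, adjusted p = 0.91 in edgeR). Nkx6-1 had 10625, 9135 and 9854 and 8889, 8773 and 8557 (-0.18). In both genes vehicle replicate 1 was the highest library. Without it their log2 fold changes were -0.11 and -0.12, and with the GC offset -0.086 and -0.11.

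Mafa, which drives insulin transcription in mature beta cells, had 18721, 14468 and 17598 with vehicle and 14466, 15257 and 13380.5 with TMAO (-0.24, 95% interval -0.49 to 0.016). Without vehicle replicate 1 it had -0.16, and with the GC offset -0.11. The 2 groups overlapped, since vehicle replicate 2 was as low as the TMAO libraries. Pdx1 had 8177, 7731 and 7858 and 7497, 8091 and 7633 (-0.033, interval -0.12 to 0.052). Ins1, Ins2 and Iapp, the genes of insulin and islet amyloid polypeptide, had 0.036, -0.00071 and 0.057, and their intervals reached at most 1.11-fold. In FPKM, Ins2 had 26157 ± 447 with vehicle and 26148 ± 1127 with TMAO (SD, n = 3). Ucn3, a peptide of mature beta cells, had -0.022, the prohormone convertase Pcsk1 0.045 and the glucose transporter Slc2a2 0.043. Of 22 islet hormones, granins and granule proteins, 21 had a 5-to-4 change excluded. Carboxypeptidase E, Cpe, had the smallest p of these (71638, 65930.5 and 67774 against 65306, 65107 and 62531 with TMAO, -0.09, adjusted p = 0.91 in edgeR), and without vehicle replicate 1 it had -0.055.

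The progenitor and dedifferentiation markers gave little to measure. Of 16 listed, 8 passed the filter. Sox9 and Neurog3 had 0 counts in all 6 libraries. In the library with the highest total a count of 0 allows a share of up to 1.34e-05% of fragments, and in that with the lowest 1.79e-05%, counting error only. Myc, the proliferative transcription factor, had 67.7, 49.2 and 35.5 normalised counts with vehicle and 31.5, 42.2 and 32.0 with TMAO (-0.52, edgeR adjusted p = 0.91), with overlap, and -0.26 without vehicle replicate 1. Sox4 had -0.20 and the peptide gene Cck, the most expressed of the list, -0.035. The 95% interval of Myc reached -0.032 at its upper end and a 2-fold lower level at its lower end. Of 14 genes that mature beta cells normally keep off, 10 had a 1.5-fold change excluded and the median was -0.0086.

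The inflammasome genes Nlrp3, Aim2 and Casp1 were too low to test. Nlrp3, the sensor of the inflammasome, had 0, 0 and 0 counts in the vehicle libraries and 0, 1 and 1 in the TMAO libraries. The DNA sensor Aim2 had 0, 0 and 0 and 2, 3 and 0, and Casp1, the caspase that cleaves interleukin-1 beta, 0, 4 and 2 and 1, 2 and 3. At such counts no fold is given and no difference was detectable. Pycard, which encodes the adaptor ASC, had 12.1, 4.64 and 11.1 and 7.88, 6.76 and 19.9 normalised counts, and its 95% interval reached 2.50-fold. Il1b had 37.4, 23.2 and 15.5 and 30.4, 31.3 and 29.8, with an interval up to 1.84-fold.

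The NF-kappaB subunits were well measured. Nfkb1 had 0.034 (interval -0.081 to 0.15) and Rela -0.047 (interval -0.16 to 0.069). Il1r1, the interleukin-1 receptor, was the most expressed gene of the list and had 0.071, and the nuclear receptor Pparg had 0.13 (0.0039 to 0.21 over the left-out libraries). Relb had -0.17 and the adaptor Traf6 0.16, both with overlapping libraries and Traf6 at 0.11 to 0.25 over the left-out libraries. Over the 26 members tested of 40 the median was 0.0053, 1 was higher and 1 lower at an unadjusted p under 0.05 (7.69%, against 5.35% of all genes), and 24 had a 1.5-fold change excluded. Among 26 interferon response genes the median was 0.034, and -0.038 without TMAO replicate 1. H2-K1, a class I histocompatibility gene, had 3064, 2735 and 2848 against 2723, 2596 and 2682 with TMAO (-0.11), and Irf9, a subunit of the interferon-activated factor, -0.23. These 2 values were -0.065 and -0.15 without vehicle replicate 1.

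The branches of the ER stress response were measured apart. For the unfolded protein response and ER folding, all 31 genes had a 5-to-4 change excluded, 0 had an unadjusted p under 0.05 in edgeR (against 5.35% of all genes), and the median was 0.013. Hspa5, the ER chaperone BiP, had 21035, 22010.3 and 21698 normalised counts with vehicle and 22565, 22892 and 22565 with TMAO (0.071, interval -0.026 to 0.17), with all TMAO libraries higher. The sensors Eif2ak3, Ern1 and Atf6 had -0.0046, -0.067 and -0.035, and Xbp1 had -0.0062. The splicing of Xbp1 cannot be read from counts per gene.

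The integrated stress response, in which ATF4 raises genes of amino acid supply, had the lowest median of the 33 lists, -0.076 (interquartile range -0.13 to -0.029). Of its 30 members 24 had estimates below 0 and 6 had an unadjusted p under 0.05, all lower (20%, against 5.35% of all genes and 3.07% for lower genes). Nupr1, a stress-induced nuclear protein, had 297, 281 and 318 normalised counts with vehicle and 229.8, 244 and 234 with TMAO, without overlap (-0.34, standard error 0.093, edgeR adjusted p = 0.91). Without vehicle replicate 1 it had -0.34 and with the GC offset -0.34. Aldh18a1, of proline synthesis, had 2974, 2834 and 3196 and 2646, 2659 and 2827 (-0.15). The amino acid transporter Slc7a5 had -0.14, with overlap, and -0.082 without vehicle replicate 1. Atf4 itself had 8591, 9227 and 9324 and 9220.2, 8853 and 9510.3 (0.023, interval -0.077 to 0.12). The mean log2 level of the list was 0.023, -0.06 and 0.11 with vehicle and -0.037, -0.06 and 0.028 with TMAO, which overlapped, vehicle replicate 2 being as low as the lowest TMAO library. Its median was -0.055 with the GC offset and -0.029 at low glucose, in libraries that the high-glucose comparison does not use.

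Of 20 cytosolic aminoacyl-tRNA synthetases all had a 5-to-4 change excluded and the median was 0.0064. Rars had 0.14 and Vars -0.12, the latter -0.067 without vehicle replicate 1. The cytosolic chaperones had a median of 0.0093, with Hspa8, the constitutive heat shock protein, at 21404, 21962 and 22788 against 23771, 23216 and 23174 with TMAO (0.085). For the 34 proteasome subunits the median was 0.015, and for the 44 autophagy and lysosome genes 0.0018. All 34 of the former had a 5-to-4 change excluded and 42 of the 44 of the latter. Map1lc3a, which encodes an autophagosome protein, had 1059, 962 and 1026 and 962, 870.3 and 825 without overlap (-0.20, GC content 63.1%).

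Lists of survival and growth genes had medians close to that of all genes. The 37 apoptosis and p53 target genes had a median of -0.0057, with Bax at -0.097 (0.0092 with the GC offset) and Parp1 at -0.012. The 47 cell cycle and replication genes had a median of -0.0031, and 46 had a 5-to-4 change excluded. Among them E2f1, a driver of S phase, had 3951, 3547 and 3676 against 3292, 3456 and 3397 with TMAO (-0.14, adjusted p = 0.91 in edgeR). For 83 cytosolic ribosomal proteins the median was -0.0051, and their share of counts was 2.30% ± 0.0764 with TMAO and 2.30% ± 0.0277 with vehicle (SD, n = 3, exact two-sided permutation test, p = 1). The 37 splicing factors had 0.0039 and the 40 chromatin enzymes -0.02, with 4 of the latter lower and 0 higher at an unadjusted p under 0.05 in edgeR (10% of the 40, against 5.35% of all genes). Among these 40, every TMAO library was lower in 1 and higher in 0 (2.5%, against 11.1% of all genes).

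In lipid metabolism, sterol synthesis and uptake had a median of 0.039, and 18 of 26 members had estimates above 0. In 5 of the 26 every TMAO library was higher than every vehicle library, and in 0 every one was lower, against 5.47% and 5.65% of all genes. At an unadjusted p under 0.05 in edgeR, 1 member was higher and 0 lower (3.85%, against 5.35% of all genes). Hmgcs1, which condenses acetoacetyl-CoA early in the pathway, had 1127, 1199.8 and 1095 normalised counts with vehicle and 1304, 1246 and 1219 with TMAO (0.14, adjusted p = 0.91 in edgeR). Srebf2, the factor that drives it, had -0.092 with overlap and -0.031 without vehicle replicate 1. The 33 fatty acid genes had a median of 0.012 and no member with an unadjusted p under 0.05 (against 5.35% of all genes), with Acly, ATP citrate lyase, at -0.047 (interval -0.12 to 0.029).

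The list of TGF-beta, BMP and matrix genes had a median of 0.054, and 20 of 27 members had estimates above 0. An unadjusted p under 0.05 was reached by 5 higher members and 1 lower (22.2%, against 5.35% of all genes). Id1, an inhibitor of helix-loop-helix factors and a target of BMP signalling, had 153, 155 and 153 normalised counts with vehicle and 208, 185 and 205 with TMAO (0.37, standard error 0.12, adjusted p = 0.91 in edgeR). The vehicle libraries were close together, and the lowest TMAO library lay well above them. Lamb1, a laminin chain, had 155, 171 and 171 and 197, 203 and 191 (0.25), also without overlap. Id2, the most expressed of the list, had 0.22 with overlap, and Smad4, the shared signal transducer, 0.054. The mean log2 level of the list was -0.079, -0.11 and 0.024 with vehicle and 0.075, 0.018 and 0.07 with TMAO, with vehicle replicate 3 among the TMAO libraries. At low glucose Id1 had -0.059, and its interaction with glucose was 0.43 (edgeR adjusted p of 1).

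Glucose induces immediate-early genes in these cells. Of 39 tested, 25 had estimates above 0 with TMAO, and the median was 0.027, or 0.058 with the GC offset. At an unadjusted p under 0.05 in edgeR, 4 were higher and 2 lower (15.4%, against 5.35% of all genes). Btg2, an antiproliferative early gene, had 905, 959 and 919 normalised counts with vehicle and 1080.2, 1015 and 1102 with TMAO, without overlap (0.20, adjusted p = 0.91 in edgeR), while Ier5 had -0.24 with overlap. The AP-1 member Junb had 0.011 and the phosphatase Dusp4 0.02, and with the GC offset 0.11 and 0.055. For 20 clock genes the median was -0.012, with Nfil3 at 0.14 and Nr1d1 at 0.11 (0.041 to 0.19 over the left-out libraries). The hypoxia list had a median of -0.031, and of -0.049 without vehicle replicate 1. There Slc2a1, the ubiquitous glucose transporter, had 382, 366 and 340.2 against 331, 319 and 287 with TMAO (-0.22, adjusted p = 0.91 in edgeR).

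Insulin, Akt, mTOR and AMPK signalling had a median of -0.041, and all 33 members had a 1.5-fold change excluded. An unadjusted p under 0.05 was reached by 1 higher and 4 lower members (15.2%, against 5.35% of all genes). Sesn2, a sestrin that restrains mTOR, had 6332, 5583 and 6168 normalised counts with vehicle and 5312, 5482 and 5704 with TMAO, with overlap (-0.13). The 32 islet receptor and cAMP genes had a median of 0.0015 and no member with an unadjusted p under 0.05 (against 5.35% of all genes), with Glp1r, the incretin receptor, at 0.0073 (interval -0.087 to 0.10).

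TMAO belongs to the methylamines, and cells use several of these as osmolytes. Among 25 tested genes of choline, one-carbon and methylamine metabolism the median was -0.007, with 1 higher and 1 lower member at an unadjusted p under 0.05 (8% of the 25, against 5.35% of all genes). Chpt1, which makes phosphatidylcholine, had 110.2, 110.4 and 115 normalised counts with vehicle and 129.5, 143 and 137 with TMAO (0.29), and Sardh, sarcosine dehydrogenase, 213, 179 and 226 and 173, 177 and 174 (-0.23). Neither pair of groups overlapped. Cbs and Mthfd1, the members with the highest FPKM, had -0.034 and -0.043. Of 18 osmolyte transport and osmotic stress genes 0 had an unadjusted p under 0.05 in edgeR (against 5.35% of all genes), and the median was 0.014. The taurine transporter Slc6a6 had -0.017 (interval -0.098 to 0.063). The betaine transporter Slc6a12 was low, at 23.3, 25.98 and 16.6 and 25.9, 10.98 and 11.04, and its interval reached 2.31-fold.

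Zinc is packed with insulin in the secretory granule. The 21 zinc transporters and metallothioneins had a median of 0.055, and their mean log2 level was -0.037, -0.0017 and -0.025 with vehicle and 0.0097, 0.039 and 0.016 with TMAO, without overlap. The difference of the means was 0.043, and 1 member, Slc39a10, had an unadjusted p under 0.05, which is 4.76% of the list against 5.35% of all genes (671, 688 and 685 against 713, 777 and 767 with TMAO, 0.14). Mt1 had 0.0015 and Mt3 -0.14, the latter 0.0091 without vehicle replicate 1. Without vehicle replicate 1 the median was 0.0094.

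By gene class, the 12902 protein-coding genes tested had 253 higher and 430 lower at an unadjusted p under 0.05 (5.29%, against 5.35% of all genes), and 86.8% had a 1.5-fold change excluded. The 793 processed pseudogenes had 42 higher and 14 lower (7.06%, against 5.35% of all genes, of which 2.28% were higher and 3.07% lower), a median log2 fold change of 0.06 and a 1.5-fold change excluded for 40.5%. Long intergenic RNAs (535 tested) had 12 higher and 11 lower (4.30%), and antisense RNAs (513) had 8 and 11 (3.704%). The libraries were made from RNA selected by its poly(A) tail, which small nucleolar RNAs and most histone mRNAs lack. Of 29 small nucleolar RNA genes, with a median of 11.3 counts, 2 were higher and 4 lower, or 20.7%, against 5.35% of all genes. In 1 of the 29 every TMAO library was higher and in 1 every one was lower (6.9%, against 11.1% of all genes). Among 1028 genes in a transcription factor family, as the table assigns them, 28 were higher and 55 lower (8.07%, against 5.35% of all genes). In the bZIP family 3 of 40 were higher and 5 lower (20%), and in the bHLH family 2 and 5 of 50 (14%). Among homeobox genes 0 and 4 of 56 (7.14%) and among zinc finger C2H2 genes 10 and 16 of 436 (5.96%) were so, close to the 5.35% of all genes. Of 32 histone genes 1 was higher and 3 were lower (12.5%). No share of a class was tested against the rest.

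The sign of a gene's estimate went with the GC content of its transcript. The 498 lower genes with an unadjusted p under 0.05 had a median GC content of 55.6%, the 370 higher genes 45.01%, and all genes 49.5% (longest transcript in the GENCODE M21 annotation, known for 97.1% of the genes tested). From the lowest decile by GC content (median 39.4%) to the highest (59.7%), the median log2 fold change was lower at each step, from 0.045 to -0.07. In the lowest decile 81 genes were higher and 18 lower at an unadjusted p under 0.05, and in the highest 6 were higher and 167 lower. At low glucose, in other libraries, the lowest decile had a median of -0.015 and the highest 0.012, the other way round.

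The GC trend was uneven between libraries. The median log2 level of the highest decile minus that of the lowest, relative to the mean of the 6 libraries, was 0.22 in vehicle replicate 1, -0.046 in vehicle replicate 2 and 0.0029 in vehicle replicate 3. With TMAO it was 0.00013, -0.042 and -0.15 in replicates 1, 2 and 3. Vehicle replicate 1 was the highest and TMAO replicate 3 the lowest, and the other 4 lay close together. The median log2 fold change of the highest decile minus that of the lowest was -0.12 with all libraries, -0.034 without vehicle replicate 1, -0.071 without TMAO replicate 3 and -0.18 without vehicle replicate 2. Leaving out vehicle replicate 1 gave 445 genes with an unadjusted p under 0.05, 231 higher and 214 lower, and leaving out vehicle replicate 2 gave 1308, 517 higher and 791 lower. With an offset for GC content in each library, chosen after the data were seen, 0 genes were called by edgeR and 797 had an unadjusted p under 0.05, 366 higher and 431 lower, and a 1.5-fold change was excluded for 12470 genes. The offset also moved the log2 fold changes of Map1lc3a to -0.095, Ndufs7 to -0.076, E2f1 to -0.082, Sesn2 to -0.071, Vars to -0.032, Mt3 to -0.034 and Srebf2 to -0.04, and that of Cox6a1 across 0 to 0.035. For transcripts low in GC it moved mt-Nd3 to 0.099, mt-Co1 to 0.058, mt-Nd1 to 0.014, Dnm1l to 0.042, Il1r1 to 0.044 and Iapp to 0.017. Among the list medians, leaving out vehicle replicate 1 gave 0.0029 for glycolysis, -0.024 for the tRNA synthetases, 0.0012 for the proteasome, 0.0085 for the interferon response, -0.016 for the cell cycle, 0.0092 for the clock and 0.0078 for the unfolded protein response. The offset gave 0.001 for glycolysis, -0.016 for the tRNA synthetases, 0.0094 for the clock, -0.008 for the osmolyte genes, -0.024 for the choline list, -0.013 for splicing and -0.0024 for the nuclear respiratory subunits. What set vehicle replicate 1 and TMAO replicate 3 apart was not tested.

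**Figure D5:**
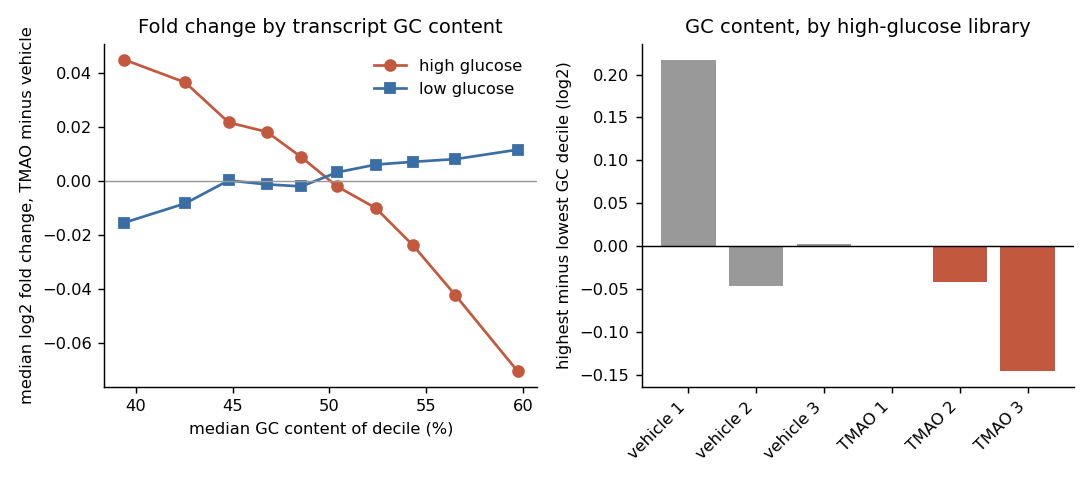
Left, the median log2 fold change of TMAO against vehicle in deciles of genes by transcript GC content, at high glucose (circles) and low glucose (squares). Right, the median log2 level of the highest GC decile minus the lowest in each high-glucose library, where vehicle replicate 1 stands at 0.22 and TMAO replicate 3 at -0.15.

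At low glucose 357 genes (2.20%) had an unadjusted p under 0.05 for TMAO against vehicle. That comparison shares no library with the high-glucose one. Of the 868 genes with such a p at high glucose, 430 (49.5%) had the same sign at low glucose, and 26 passed in both, 18 of them with the same sign. Across the 16222 genes the log2 fold changes at the 2 glucose levels had a correlation of -0.0013, given as a description, since genes are not independent replicates. For the interaction of TMAO with glucose, edgeR called 0 genes (0%) at an adjusted p under 0.05, with 545 at an unadjusted p under 0.05, and DESeq2 called 1.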

How the data were processed

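Poly(A) RNA was selected with poly-T beads from total RNA of MIN6 cells, per the study's methods, and made into libraries with the NEBNext Ultra kit. Per the labels and the submitters' processing notes, the authors aligned reads to mm10 with HISAT2 2.0.5 and counted them per gene with featureCounts 1.5.0-p3, and DESeq2 1.16.1 is named. The authors deposited raw counts per gene and FPKM values for each of 12 libraries. Counts were tested as deposited, and FPKM served for levels only. Whether counting used strand is not given in the sources used here. Library totals were 16793162 to 22340542 counts, so a count of 0 allows up to 3 counts, and such limits cover counting error only. The labels do not give the origin of the replicates, and the study describes its RNA-seq replicates as biologically independent. The p-values measure the spread between these libraries.

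Genes were filtered with filterByExpr, scaled by TMM and fitted with edgeR 4.0.16 (robust quasi-likelihood, R 4.3.3) as 4 group means over all 12 libraries, which share 1 estimate of the spread. Standard errors and 95% intervals were taken from the fitted weights and moderated dispersions. A change was called excluded when both one-sided tests against a ratio of 5 to 4, 1.5-fold or 2-fold had a Benjamini-Hochberg adjusted p under 0.05. The procedure was tested on simulated data first. Alternatives used DESeq2 1.42.0, limma 3.58.1 on log2 of FPKM with pseudocounts of 1 and 0.1, other filters and scalings, the 6 libraries alone, a replicate block and each library left out. The offset for transcript GC content was chosen after the data were seen.

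Named genes were those called under an alternative with all libraries, the 8 highest and 8 lowest estimates with an unadjusted p under 0.05, no overlap and a mean of at least 50 counts, the 2 highest by FPKM and 2 of smallest p in each list, and genes the study measured. The comparison and the gene lists were chosen with earlier results of these data known. Some genes are not reported here.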

Additional observations from a re-analysis of the deposited data

How the results depend on the processing

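Under edgeR no gene was called with either scaling, with at least 10 counts required in every library, with limma on FPKM or with the GC offset. DESeq2 called 3 genes with 12 libraries and 7 with 6, edgeR on the 6 high-glucose libraries called 3, and without a filter on low counts 13 were called and 1402 had an unadjusted p under 0.05. With each library left out in turn 0 to 1 genes were called and 445 to 1308 had an unadjusted p under 0.05, the lowest without vehicle replicate 1, which also gave the 1 call, a gene without a symbol, and the highest without vehicle replicate 2. For the interaction of TMAO with glucose, DESeq2 called 1 gene, no filter gave 6, and leaving out libraries gave 0 to 2, the 2 without TMAO replicate 1. The counts of genes with a 1.5- or 2-fold change excluded stayed within 1.5 times under all alternatives run, and no value of a gene or list was reversed past a threshold.

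With the replicate number as a replicate block, edgeR called 0 genes, 1104 had an unadjusted p under 0.05 and a 1.5-fold change was excluded for 12448. Same-numbered libraries of the 2 treatments had correlations of 0.020, -0.003 and 0.063 between their deviations from the group means. Pairs with different numbers had -0.061 to 0.042, and not every library correlated best with its own number. These values cannot show whether same-numbered libraries were prepared together, and the labels do not say.

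The medians of 16 of the 33 lists changed sign under at least 1 alternative, all of them within 0.034 of 0 with all libraries. This held for 10 lists with the GC offset, 4 with at least 10 counts in every library, 5 without vehicle replicate 1, and 4 to 8 without another library. The largest of these medians was that of the interferon list, which was -0.038 without TMAO replicate 1. The cause was not tested. Depth limits genes of up to 15 counts most, for which no 1.5-fold change was excluded.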

Other observations

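Of the 868 genes with an unadjusted p under 0.05 at high glucose, 262 also had such a p for the interaction of TMAO with glucose (edgeR, adjusted p under 0.05 for 0 of them). Ribosomal protein genes and the 20 most counted genes took the same shares of each library in both groups within their spread. The top 20 held 10.04% ± 0.242 of counts with TMAO and 9.91% ± 0.159 with vehicle (SD, n = 3, exact two-sided permutation test, p = 0.5), and Ins2 alone 3.44% ± 0.144 and 3.43% ± 0.0635 (p = 1 in the exact permutation test).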
